A study of Homo sapiens with 5 samples.

Results

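The DOCK proteins are guanine nucleotide exchange factors: they load the small GTPases Rac and Cdc42 with GTP and so switch on actin remodelling, cell migration, engulfment and the outgrowth of cell processes. They do this through a catalytic domain of their own, called DHR2, and not through the Dbl-homology domain of the larger exchange factor family. DOCK1, DOCK2 and DOCK5 act on Rac with scaffolds of the ELMO family, and DOCK3 and DOCK4 form a related Rac-type pair. DOCK6 acts on both Rac and Cdc42, and DOCK8 and DOCK9 act on Cdc42.

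The 8 DOCK genes described here were the rows named DOCK1, DOCK2, DOCK3, DOCK4, DOCK5, DOCK6, DOCK8 and DOCK9 among 13638 rows of a table of ribosome footprint counts. They were chosen with their values in the same comparison already known, so their differences between genotypes are given as a description and carry no p-value.

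The libraries came from HAP1, a human line with close to a single chromosome set that derives from chronic myeloid leukaemia. Wild-type HAP1 cells gave 2 libraries and HAP1 cells with a knockout of ZCCHC4, the enzyme that the series names for N6-methyladenosine on 28S ribosomal RNA, gave 3. No treatment, time point or clone is stated in the labels, and nothing says that the libraries of a genotype came from separate cultures, so p-values measure only how far these libraries spread, and that spread may be technical. A footprint is the piece of mRNA covered by a ribosome, and with no RNA-seq libraries used here a change in mRNA level and a change in ribosome occupancy cannot be told apart.

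The wild-type libraries held 4887380 and 5302160 counts, against 16940732 to 31557573 in the knockout. In TMM-scaled CPM, which sets each count against the size of its library, 1 count was worth 0.172 to 0.187 in wild type and 0.0339 to 0.0619 in the knockout. Between the wild-type libraries a chi-square test of counts over genes gave 1.14 per degree of freedom, close to sampling noise. Among the knockout libraries it gave 2.97 between replicates 1 and 3, 27.7 between replicates 1 and 2, and 24.6 between replicates 2 and 3. ZCCHC4 itself had 16.0 and 13.3 CPM in wild type against 3.85, 3.41 and 4.98 CPM in the knockout, which was 3.54-fold lower (adjusted p = 7.27e-05 in the quasi-likelihood test of edgeR, Benjamini-Hochberg adjusted). Over all 11205 genes tested, 6721 passed at an adjusted p under 0.05, which is 60.0%, with 3341 (29.8%) lower in the knockout and 3380 (30.2%) higher; with libraries scaled by their totals alone, 4564 were lower and 2391 higher.

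Upstream sequence shows how unlike the starts of DOCK genes are, even within the ELMO-binding Rac group. DOCK1, which had the smallest fall of the 8 genes, and DOCK2, which had the fewest footprints, are printed from base 250 to base 31 before their RefSeq start (GRCh38.p14), with every CG dinucleotide, the methylatable unit of CpG islands, in capitals. The DOCK1 window is chr10:126905178-126905397 on the plus strand, and the DOCK2 window is chr5:169637025-169637244 on the plus strand.
DOCK1: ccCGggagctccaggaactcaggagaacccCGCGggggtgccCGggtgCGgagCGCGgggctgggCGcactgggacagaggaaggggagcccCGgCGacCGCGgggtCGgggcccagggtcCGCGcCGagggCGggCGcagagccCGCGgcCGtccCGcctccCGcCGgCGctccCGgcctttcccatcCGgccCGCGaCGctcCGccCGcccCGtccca
DOCK2: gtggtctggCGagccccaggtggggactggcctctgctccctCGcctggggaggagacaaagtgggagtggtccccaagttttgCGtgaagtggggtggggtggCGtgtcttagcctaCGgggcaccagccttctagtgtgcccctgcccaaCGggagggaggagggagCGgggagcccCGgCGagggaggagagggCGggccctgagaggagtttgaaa
The 220 bases before DOCK1 held 33 CG dinucleotides and were 81.4% G or C, and 3.86% of 35116 RefSeq windows of this length held at least as many. The 220 bases before DOCK2 held 10, close to the median of 9 over all windows, and 48.7% of windows held at least as many. CG reads the same on both strands and cannot overlap itself, so each site was counted once. RefSeq windows were matched for 6 of the 8 genes. Of the others, DOCK3 had 31 CG dinucleotides and DOCK4 had 21, while the Cdc42-type genes DOCK8 and DOCK9 had 33 and 3. DOCK8 and DOCK9 each had 2 RefSeq windows, and the count of only a single window of each is given here. The number of CG dinucleotides in the windows given did not sort the genes by class. The DOCK3 window lies at a RefSeq start 314 bases from the start of the counted transcript, and that of DOCK9 at a start 74 bases away.

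All 8 DOCK genes had fewer footprints in the knockout libraries than in the wild-type libraries, and in none of them did the genotypes overlap. Over all genes tested, 37.9% were lower without overlap and 76.4% did not overlap in either direction. The median log2 fold change of the 8 genes was -1.84, a 3.57-fold lower level, beside 0.02 over all genes tested, and it was -1.96 without knockout replicate 2, the library that stood apart. All 8 passed the filter on low counts and had an adjusted p under 0.05 in the all-gene fit, as did 29.8% of all genes tested in the lower direction, and 5 of them were at least 2-fold lower, as were 13.1% of all genes tested. Since the genes were chosen on this comparison, nothing is read from these shares. In a bulk lysate, fewer cells that use a gene and less of its RNA per cell cannot be told apart.

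**Figure D1:**
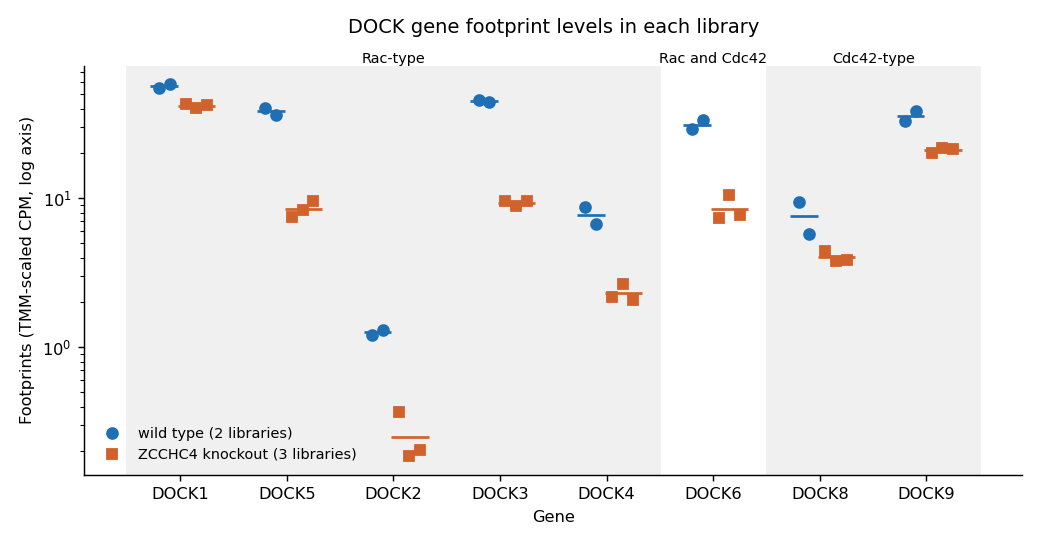
Footprint level of each DOCK gene in each library, in TMM-scaled CPM on a log axis, with 2 wild-type libraries (circles) and 3 knockout libraries (squares) per gene and a bar at each genotype's mean. Every knockout point lies below every wild-type point of its gene, with a wide gap for DOCK5, DOCK2, DOCK3, DOCK4 and DOCK6 and a narrow one for DOCK1 and DOCK8.

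DOCK1, the founding member, forms with ELMO the Rac exchange factor used in engulfment of dying cells and in cell migration. Its counted transcript (ENST00000280333, gene ENSG00000150760) runs over 52 exons from 126905409 to 127452517 on the plus strand of chromosome 10. It had 54.9 and 58.3 CPM in wild type against 42.7, 40.2 and 42.1 CPM in the knockout. The 5 values formed 2 tight groups, with means of 56.6 ± 2.40 (SD, n = 2) and 41.7 ± 1.30 (SD, n = 3). The log2 fold change was -0.44 ± 0.09 (SE), a 1.36-fold lower level and the smallest fall among the 8 genes. After a spline fit of all log2 fold changes on coding length and GC content, which was added after the values were seen, -0.04 remained for DOCK1.

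DOCK5, the closest relative of DOCK1, is known for the bone-resorbing activity of osteoclasts and for myoblast fusion. Its transcript (ENST00000276440, ENSG00000147459) has 52 exons between 25184865 and 25415716 on the plus strand of chromosome 8. It had 40.4 and 36.2 CPM in wild type and 7.48, 8.36 and 9.55 CPM in the knockout. Both wild-type values were far above all 3 knockout values, and the means were 38.3 ± 2.93 (SD, n = 2) and 8.46 ± 1.04 (SD, n = 3). The log2 fold change was -2.18 ± 0.14, a 4.52-fold lower level, so the near relatives DOCK1 and DOCK5, at 10.1 and 6.83 CPM per kb of coding sequence in wild type, stood at 7.45 and 1.51 CPM per kb in the knockout.

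DOCK2 is the Rac exchange factor of white blood cells, where it drives migration towards chemokines. Its transcript (ENST00000256935, ENSG00000134516) has 52 exons between 169637247 and 170083382 on the plus strand of chromosome 5. Only 7 and 7 footprints were counted in wild type, against 10, 3 and 6 in the deeper knockout libraries, which is 1.21 and 1.31 CPM against 0.367, 0.186 and 0.203 CPM. The genotypes did not overlap, but the log2 fold change of -2.24 ± 0.52 had the widest error of the 8. From the summed counts the wild-type level was 4.82 times that of the knockout, with an exact 95% interval from 2.24 to 10.1 that covers counting error only. DOCK2 reached the filter's level in the wild-type libraries and not in the knockout libraries, so a gene at its level could pass only by being lower.

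DOCK3 was first described as a partner of presenilin and acts mainly in neurons, where it promotes axon growth. Its transcript (ENST00000266037, ENSG00000088538) has 53 exons between 50675241 and 51384198 on the plus strand of chromosome 3. It had 45.7 and 44.1 CPM in wild type and 9.57, 8.86 and 9.58 CPM in the knockout. The libraries within each genotype were almost level, at 44.9 ± 1.17 (SD, n = 2) and 9.34 ± 0.415 (SD, n = 3). The log2 fold change of -2.26 ± 0.11, a 4.79-fold lower level, was the largest fall of the 8 genes, with DOCK2 and DOCK5 within its error.

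DOCK4, the partner of DOCK3 in sequence, also works through ELMO and is known for migration and for dendrite growth. Its transcript (ENST00000437633, ENSG00000128512) has 52 exons between 111728220 and 112206395 on the minus strand of chromosome 7. It had 8.80 and 6.72 CPM in wild type and 2.16, 2.66 and 2.07 CPM in the knockout. The lowest wild-type value was still more than double the highest knockout value, and the means were 7.76 ± 1.47 (SD, n = 2) and 2.30 ± 0.321 (SD, n = 3). The log2 fold change was -1.78 ± 0.23, a 3.44-fold lower level.

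DOCK6 acts on both GTPases, and its loss in humans causes Adams-Oliver syndrome, a disorder of skin and limb formation. Its transcript (ENST00000294618, ENSG00000130158) has 48 exons between 11199295 and 11262452 on the minus strand of chromosome 19. It had 28.98 and 33.4 CPM in wild type and 7.37, 10.5 and 7.69 CPM in the knockout, where replicate 2 was the highest. The means were 31.2 ± 3.14 (SD, n = 2) and 8.53 ± 1.74 (SD, n = 3), and the log2 fold change was -1.89 ± 0.17, a 3.71-fold lower level, and -1.28 remained after the spline fit on coding length and GC content. In size DOCK6 stood with DOCK4 and not with DOCK8 and DOCK9.

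DOCK8 activates Cdc42 in lymphocytes and dendritic cells, and its loss causes a human immunodeficiency. Its transcript (ENST00000432829, ENSG00000107099) has 48 exons between 214865 and 465259 on the plus strand of chromosome 9. It had 9.49 and 5.79 CPM in wild type and 4.44, 3.78 and 3.86 CPM in the knockout. The wild-type libraries lay far apart, at 7.64 ± 2.62 (SD, n = 2), and the lower of them stood only slightly above the highest knockout value, in a group at 4.02 ± 0.358 (SD, n = 3). The log2 fold change was -0.93 ± 0.23, a 1.90-fold lower level, and it was -0.52 without wild-type replicate 1 and -1.23 without wild-type replicate 2. After the spline fit on coding length and GC content it was -0.48. C9orf66, which overlaps DOCK8 on the other strand, had 4 and 0 counts in wild type against 2, 6 and 0 in the knockout; strand use in the counting is not given in the sources used here.

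DOCK9, also called zizimin, activates Cdc42 and is known for dendrite growth in neurons. Its transcript (ENST00000376460, ENSG00000088387) has 57 exons between 98793487 and 98977990 on the minus strand of chromosome 13. It had 32.9 and 38.3 CPM in wild type and 20.1, 21.6 and 21.3 CPM in the knockout. The groups were clearly separate, at 35.6 ± 3.77 (SD, n = 2) and 21.0 ± 0.828 (SD, n = 3). The log2 fold change was -0.76 ± 0.11, a 1.70-fold lower level, and -0.36 remained after the spline fit.

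The Rac-type genes held both ends of the range. DOCK2, DOCK3, DOCK4 and DOCK5 were 3.44-fold to 4.79-fold lower, whereas DOCK1, the Rac-type gene with the highest level, was 1.36-fold lower. The 5 Rac-type log2 fold changes ran from -2.26 to -0.44 with a median of -2.18. The Cdc42-type genes DOCK8 and DOCK9 lay in between, with a median of -0.84, so the Rac-type median was lower by 1.33 on the log2 scale. DOCK6 at -1.89 fell inside the Rac-type range. After the spline fit DOCK2 to DOCK5 had -1.81 to -1.39. Without DOCK2 the Rac-type median was lower by 1.13. No test is given for the classes, since the genes are few, are not replicates and were chosen on these values.

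**Figure D2:**
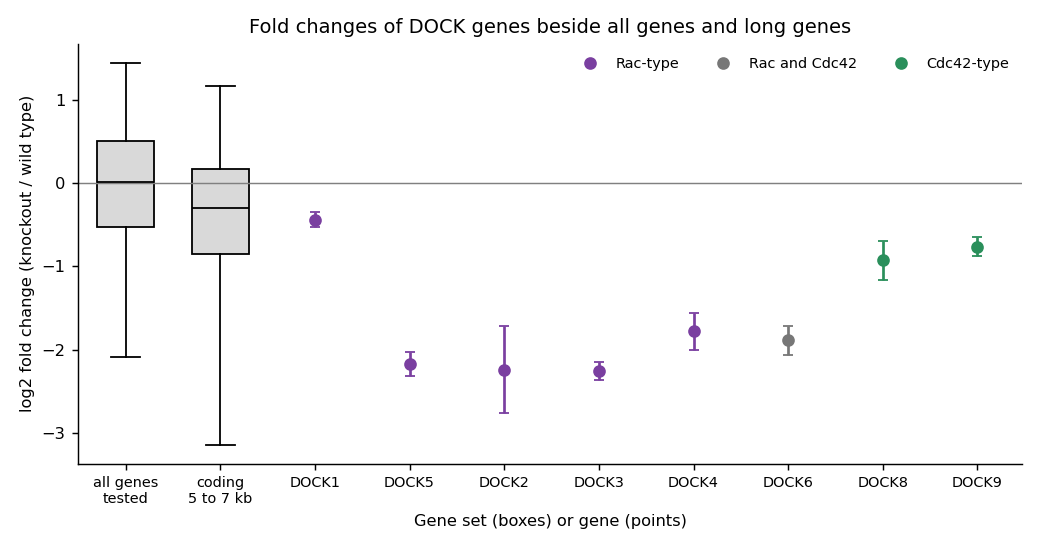
Log2 fold change of each DOCK gene, knockout over wild type, as points coloured by class with bars of 1 SE, beside boxes for all 11205 genes tested and for the 292 genes with a coding length of 5 to 7 kb (quartiles, with whiskers from the 5th to the 95th percentile). DOCK2 to DOCK6 lie from -2.26 to -1.78, below the quartiles of both boxes, and DOCK1, DOCK8 and DOCK9 lie from -0.93 to -0.44.

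Summed per kb of coding sequence, so that genes could be added and compared, the 8 genes had 37.8 and 38.0 CPM per kb in wild type and 16.1, 16.4 and 16.5 CPM per kb in the knockout. The sum was 2.32-fold lower, and its SD within a genotype was at most 0.207 CPM per kb. The Rac-type sum was 26.2 and 25.5 CPM per kb in wild type and 10.96, 10.6 and 11.2 CPM per kb in the knockout, a 2.37-fold lower level. The Cdc42-type sum was 6.82 and 7.09 CPM per kb in wild type and 3.94, 4.08 and 4.05 CPM per kb in the knockout, a 1.73-fold lower level. Neither sum overlapped between genotypes.

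The ratio of the Rac-type to the Cdc42-type sum was 3.85 and 3.59 in wild type against 2.79, 2.60 and 2.77 in the knockout. The 5 Rac-type genes made up 68.2% of the 8-gene sum in wild type and 66.9% in the knockout, so their share hardly moved as a whole. Without DOCK1, a split made after the values were seen, they made up 41.6% and 21.3%, while the share of DOCK1 itself was 26.0% and 27.4% in wild type against 47.4%, 43.8% and 45.7% in the knockout. The Cdc42-type share was 18.4% in wild type and 24.6% in the knockout. These shares add to a fixed whole, so each one also moves with the others.

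**Figure D3:**
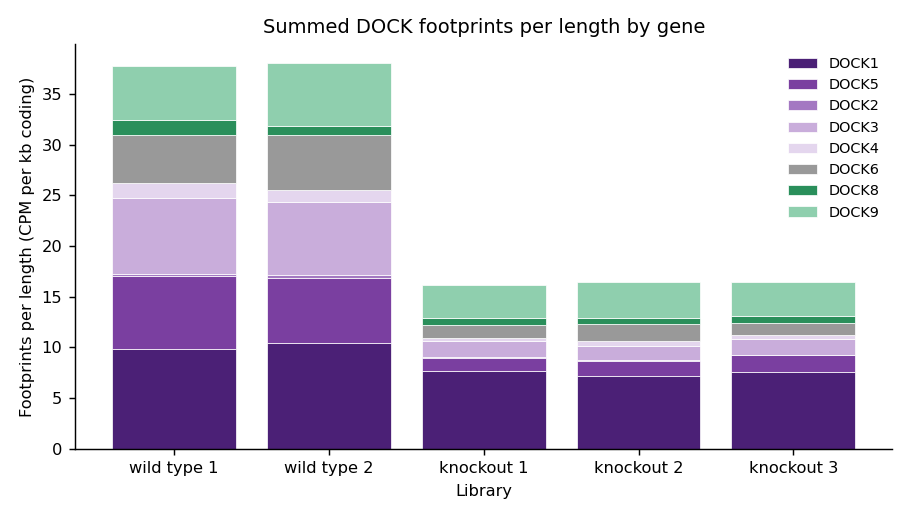
Footprints per kb of coding sequence (CPM per kb) summed over the 8 DOCK genes in each of the 5 libraries, stacked by gene. The stack is 37.8 and 38.0 high in wild type and 16.1 to 16.5 high in the knockout, where the DOCK1 block takes 43.8% to 47.4% of it.

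Per kb of coding sequence the order of levels in wild type was DOCK1 at 10.1 CPM per kb, DOCK3 at 7.37, DOCK5 at 6.83, DOCK9 at 5.74, DOCK6 at 5.08, DOCK4 at 1.32, DOCK8 at 1.21 and DOCK2 at 0.229. The libraries of the neighbours DOCK9 and DOCK6, and of DOCK4 and DOCK8, overlapped, so these pairs are not ordered. In the knockout the order was DOCK1 at 7.45 CPM per kb, DOCK9 at 3.38, DOCK3 at 1.53, DOCK5 at 1.51, DOCK6 at 1.39, DOCK8 at 0.639, DOCK4 at 0.390 and DOCK2 at 0.0459. There the neighbours DOCK3 and DOCK5, and DOCK5 and DOCK6, overlapped. The Cdc42-type DOCK9 thus stood below DOCK3 and DOCK5 in wild type and above both in the knockout, and DOCK1 and DOCK2 kept their places at the ends. The wild-type part of this depends on the length used: per kb of transcript DOCK9 had 4.72 CPM per kb in wild type, above DOCK5 at 3.80 and overlapping DOCK3 at 5.13, and in the knockout DOCK9 was again above both, at 2.78 against 0.840 and 1.07.

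Beyond their catalytic domain the genes share their build. Their coding sequences are 5490 to 6297 bases long over 48 to 57 exons, whereas the median coding length over the genes tested was 1431 bases and 3.59% were at least as long as the shortest of the 8. Their coding GC content ran from 47.1% to 61.4%, with DOCK6 at the top, beside a median of 52.0%. Long genes as a class were lower in these knockout libraries. The median log2 fold change was 0.24 for coding sequences under 0.5 kb, 0.04 for 1 to 2 kb, -0.22 for 3 to 4 kb and -0.29 for 5 to 7 kb.

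Among the 292 genes of 5 to 7 kb, 148 were lower at an adjusted p under 0.05, which is 50.7%, and 66 were also at least 2-fold lower, which is 22.6%. Within that length class, 8.56% of genes were as low as DOCK3 or lower, 9.25% as low as DOCK2, 9.59% as low as DOCK5, 11.3% as low as DOCK6 and 11.6% as low as DOCK4. The corresponding shares were 24.0% for DOCK8, 27.7% for DOCK9 and 42.1% for DOCK1. DOCK1 thus sat near the middle of genes of its length, and the other genes lay below it. After the spline fit on coding length and GC content the median of the 8 genes was -1.33, beside 0.08 over all genes.

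The genes lie on 8 chromosomes, so the tested genes around each show whether a stretch moved with it. Of the 20 neighbours of DOCK3, 10 on each side, 4 were lower and 6 higher at an adjusted p under 0.05 with a median log2 fold change of 0.08, and none was as low as DOCK3. The neighbours of DOCK2 had a median of 0.15, with 7 of 20 lower and 9 higher. Those of DOCK6 had a median of 0.34, with 5 of 20 lower and 6 higher. Those of DOCK4 had a median of -0.23, with 9 of 20 lower and 5 higher. For these 4 genes the neighbours' median was far nearer to 0 than the DOCK gene's value. Over all genes tested, 29.8% were lower and 30.2% higher. Of the neighbours called, TENM2 and TLX3 beside DOCK2, ELAVL3 beside DOCK6, LRRN3 beside DOCK4 and NAT6 beside DOCK3 passed the filter on low counts through a single genotype.

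Around DOCK5 the neighbours were low as well. Of its 20 neighbours over 4.44 Mb, 16 were lower and 2 higher, with a median of -0.97, and 5 of them were as low as DOCK5 or lower. Among those 5, EBF2, EPHX2 and PTK2B had 1.70, 3.66 and 5.45 CPM in wild type against 0, 0.0206 and 0.567 CPM in the knockout. They passed the filter on low counts through wild type, so genes at their knockout levels could be tested only if lower. The nearest tested coding genes on either side were KCTD9, a protein with a potassium channel tetramerization domain, and STC1, a secreted glycoprotein. KCTD9 fell from 72.6 to 42.6 CPM, with a log2 fold change of -0.77 ± 0.09 (adjusted p = 8.43e-05). STC1 had 0 and 1 counts in wild type against 34, 6 and 24 in the knockout. It missed the threshold (adjusted p = 0.0504), although it passed in 4 of 10 alternatives. STC1 reached the filter's level in the knockout alone, so a gene at its wild-type level could pass only by being higher. Over chromosome 8 below 45 Mb, a stretch chosen after the values were seen, 100 of 138 tested genes were lower and 8 higher, with a median of -0.88. That is 72.5% lower, beside 29.8% over all genes tested. In this stretch 12.3% were as low as DOCK5 or lower, beside 4.77% over all genes tested. The part of this stretch in the level of DOCK5 was not tested.

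Around the genes with smaller falls, the neighbours of DOCK1 had a median of 0.12, with 4 of 20 lower and 7 higher, and 2 were as low as DOCK1 or lower. Those of DOCK9 had a median of -0.09, with 7 of 20 lower and 4 higher, and 5 were as low as DOCK9 or lower. DOCK8 lies near the end of its chromosome with 1 tested gene before it, and its 11 neighbours had a median of -0.50, with 5 lower and 3 higher. With at most 5 genes on each side, the 6 genes around DOCK8 had a median of -0.81, near the -0.93 of DOCK8 itself. Their log2 fold changes ran from -1.16 to 0.35, and DMRT3 and DMRT2 among them had only 1.43 and 0.898 CPM in wild type. The median was -0.78 around DOCK5 and 0.76 around DOCK6. Around DOCK9 it was then -0.22 and around DOCK1 0.34. The part of the surrounding stretch in the level of DOCK8 was not tested.

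**Figure D4:**
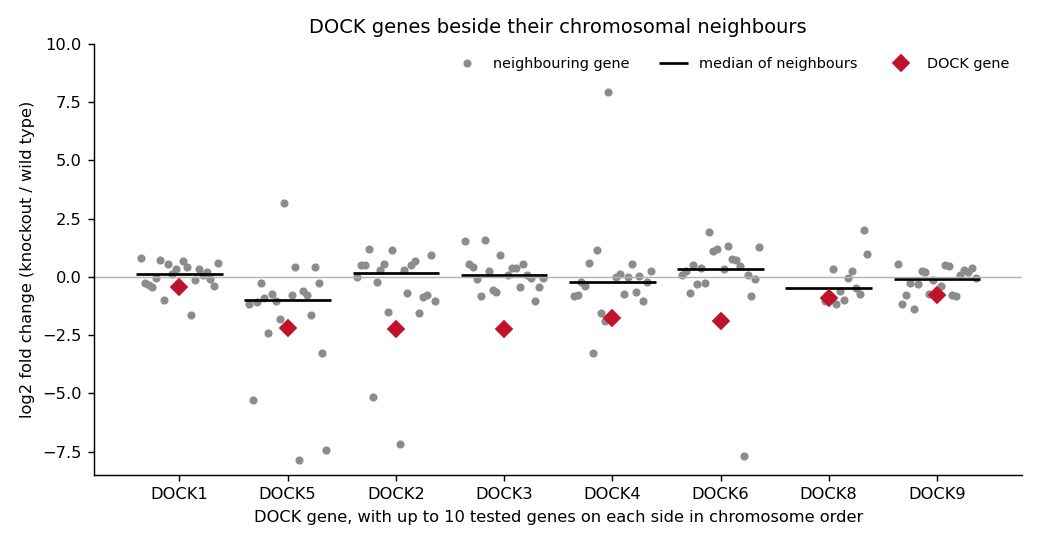
Log2 fold change, knockout over wild type, of each DOCK gene (diamond) and of up to 10 tested genes on each side of it (dots), with a bar at the neighbours' median. The medians lie between -0.50 and 0.34 except around DOCK5, where the bar is at -0.97; the most extreme dots are fitted values of genes with few counts in a genotype.

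By Euclidean distance of log2(CPM + 0.1) over the 5 libraries, the tested genes nearest to DOCK3, the gene with the largest fall, were SEPT5 at 0.450, DOCK5 at 0.492 and FBXO25 at 0.514. SEPT5, a septin of chromosome 22, had means of 36.6 CPM in wild type and 9.62 CPM in the knockout. FBXO25, an F-box protein gene of chromosome 8, had means of 44.4 and 11.3 CPM. No DOCK gene rose, so no gene was matched to a rise.

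The genes of proteins that DOCK factors work with moved in both directions. Over lists of partners, GTPases, other exchange factors, inhibitors, effectors and receptors, 113 rows were tested, 26 were higher and 41 lower at an adjusted p under 0.05, and 46 did not pass. These are 23.0% higher and 36.3% lower, beside 30.2% and 29.8% over all genes tested, the shares against which the lists that follow can be read. Their median log2 fold change was -0.12, beside 0.02 over all genes tested, and 9 were at or below the median of the 8 DOCK genes. The number lower was 27 without wild-type replicate 1, and with libraries scaled by their totals alone 23 were higher and 53 lower.

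**Figure D5:**
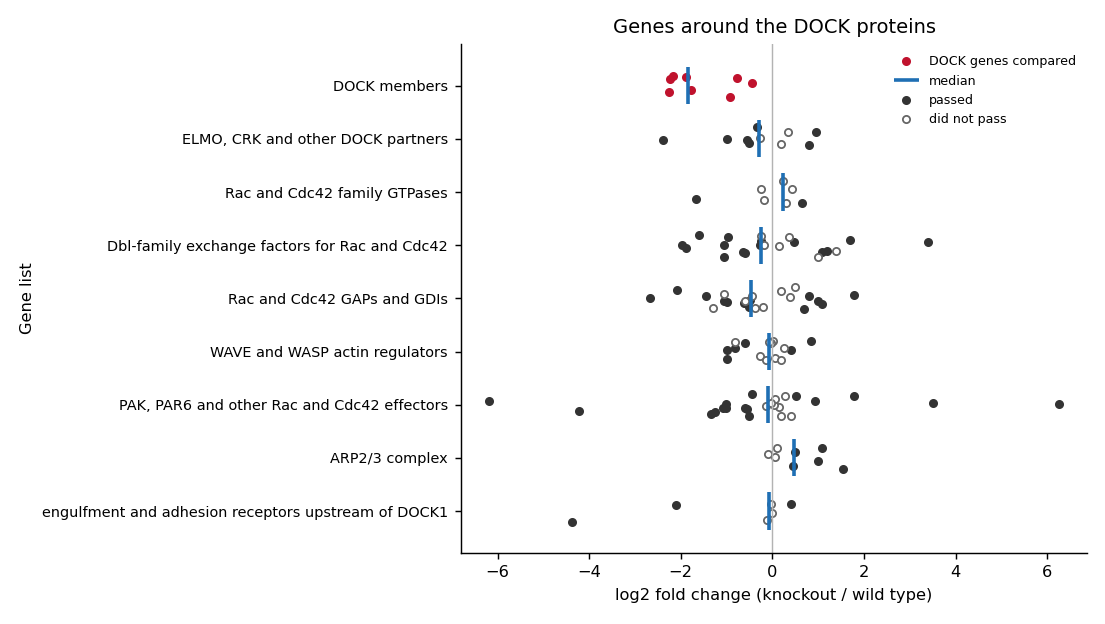
Log2 fold change, knockout over wild type, of each tested gene in the lists around the DOCK proteins, filled where the adjusted p was under 0.05 and open where it was not, with a bar at each list's median; the top row shows the 8 DOCK genes. The DOCK bar is at -1.84 and the other bars lie between -0.46 and 0.48; the points beyond -4 and beyond 4 are fitted values of genes with few counts in a genotype.

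Among partners, a list of scaffolds, adaptors and regulators around DOCK proteins, 2 of 10 tested genes were higher and 5 lower. Their median was -0.30. The number lower was 2 without either wild-type library. Of the ELMO scaffolds, ELMO2 alone had enough counts to be tested. It had 31.2 ± 1.30 CPM (SD, n = 2) in wild type and 26.1 ± 2.69 CPM (SD, n = 3) in the knockout, with a log2 fold change of -0.26 ± 0.12 that missed the threshold (adjusted p = 0.0920) and passed in 3 of 14 alternatives, among them without knockout replicate 2 (adjusted p = 0.00121). The ELMO2 libraries of the genotypes did not overlap. ELMO1 had 3 and 1 counts in wild type against 0, 0 and 5 in the knockout, and ELMO3 had 0 and 2 against 6, 1 and 7, so neither could be tested at this depth.

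The adaptor CRKL, which links DOCK1 to tyrosine-phosphorylated scaffolds, rose from 55.7 to 97.2 CPM (log2 fold change 0.80 ± 0.09, adjusted p = 8.02e-05). NCK1, an adaptor that binds actin regulators, rose from 19.6 to 38.0 CPM (0.96 ± 0.13, adjusted p = 0.000178). WIPF1, which stabilises WASP proteins, fell from 21.4 to 4.16 CPM (-2.39 ± 0.19, adjusted p = 9.98e-06). LRCH1, a leucine-rich repeat protein described as a brake on DOCK8, fell from 19.3 to 9.63 CPM (-0.99 ± 0.15, adjusted p = 0.000439). Adaptors of one family differed in direction: NCK1 rose while NCK2, named here after its value was seen, fell with a log2 fold change of -0.55 ± 0.14 (adjusted p = 0.00750).

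Most tested GTPases of the Rac and Cdc42 groups missed the threshold, while CDC42 and RAC3 passed it in opposite directions. Of 7 tested GTPases of the Rac and Cdc42 groups, 1 was higher, 1 was lower and 5 missed the threshold. Their median was 0.24. CDC42 rose from 297 ± 1.78 CPM (SD, n = 2) to 468 ± 16.5 CPM (SD, n = 3), with a log2 fold change of 0.66 ± 0.07 (adjusted p = 4.48e-05). RAC3, a Rac of neural tissue, fell from 52.9 ± 1.48 to 16.7 ± 2.55 CPM (-1.68 ± 0.13, adjusted p = 9.75e-06). RAC1, the Rac of most tissues, had 321 ± 6.05 CPM in wild type and 282 ± 21.3 CPM in the knockout (-0.19 ± 0.08, adjusted p = 0.0717). It passed as lower in 6 of 14 alternatives, among them without knockout replicate 1 (adjusted p = 0.0438) and without knockout replicate 2 (adjusted p = 0.00398). RHOG, which recruits ELMO and DOCK1 to the membrane, had 10.0 CPM in wild type and 13.7 CPM in the knockout (0.43 ± 0.20, adjusted p = 0.0844), and it passed as higher with the replicate number as a block (adjusted p = 0.0462) and with no filter (adjusted p = 0.0494).

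Among exchange factors of the Dbl family for Rac and Cdc42, 5 of 21 tested genes were higher and 10 lower, with a median of -0.24. The number higher was 8 without knockout replicate 2. TIAM1, a Rac exchange factor of cell adhesion, rose from 2.24 to 23.5 CPM (3.39 ± 0.18, adjusted p = 1.21e-06), and DNMBP, a Cdc42 exchange factor of cell junctions, rose from 15.6 to 35.7 CPM (1.19 ± 0.11, adjusted p = 2.49e-05). PREX2, a Rac exchange factor under phosphoinositide control, fell from 16.6 to 4.28 CPM (-1.96 ± 0.19, adjusted p = 2.67e-05), and PLEKHG4 fell from 28.3 to 7.75 CPM (-1.90 ± 0.19, adjusted p = 4.16e-05). Exchange factors for Rac thus included genes about as far down as DOCK6 and a gene, TIAM1, that rose 10.5-fold.

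GAPs, which return Rac and Cdc42 to the inactive state, and GDIs, which hold them in the cytosol, had 5 of 22 tested rows higher and 8 lower, with a median of -0.46. The number lower was 4 without wild-type replicate 1 and 5 without wild-type replicate 2. ARHGDIA, the main GDI, rose from 321 to 556 CPM (0.79 ± 0.07, adjusted p = 2.07e-05), and the Rac GAP CHN1 rose from 18.1 to 38.6 CPM (1.09 ± 0.13, adjusted p = 0.000116). ARHGAP31, a GAP for Rac and Cdc42, fell from 27.6 to 13.8 CPM (-0.99 ± 0.12, adjusted p = 0.000107), and ARHGAP44 fell from 10.1 to 3.68 CPM (-1.45 ± 0.18, adjusted p = 0.000115). ARHGAP22 and ARHGAP29 among those lower, named after their values were seen, had 1.24 and 1.08 CPM in wild type against 0.191 and 0.283 CPM in the knockout. Both reached the filter's level in wild type alone, so they could pass only by being lower.

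Downstream of Rac, the WAVE and WASP regulators of actin branching had 2 of 15 tested genes higher and 4 lower, with a median of -0.08. The number higher was 1 without either wild-type library. The Rac-binding WAVE subunits CYFIP1 and CYFIP2 fell by similar amounts, from 118 to 59.7 CPM (-0.98 ± 0.11, adjusted p = 8.56e-05) and from 166 to 83.3 CPM (-0.99 ± 0.08, adjusted p = 1.52e-05), while ABI1 of the same complex rose from 24.2 to 43.6 CPM (0.85 ± 0.11, adjusted p = 0.000223). WIPF3, a relative of WIPF1, fell from 65.2 to 36.9 CPM (-0.82 ± 0.10, adjusted p = 8.84e-05). The ARP2/3 complex, which nucleates the branches, had 5 of 8 tested subunits higher, which is 62.5% beside 30.2% over all genes tested, and 3 that missed the threshold, with a median of 0.48. ARPC4 rose from 20.02 to 58.2 CPM (1.54 ± 0.11, adjusted p = 6.16e-06), ARPC5 from 83.0 to 175 CPM (1.08 ± 0.09, adjusted p = 1.26e-05) and ARPC1B from 42.8 to 84.9 CPM (0.99 ± 0.13, adjusted p = 0.000175). When libraries were scaled by their totals alone, 1 subunit was lower. The ARP2/3 subunits have a median coding length of 1.00 kb, and the coding sequences of ARPC4 and ARPC5 are 504 and 453 bases long. Of all tested genes, 30.8% were higher at 1 to 2 kb, 34.3% at 0.5 to 1 kb and 42.9% under 0.5 kb.

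Of 24 tested effectors, which bind the active GTPases, 5 were higher and 11 lower, with a median of -0.09. The number lower was 6 without either wild-type library. The IQGAP scaffolds of Rac and Cdc42 went both ways: IQGAP1 rose from 69.8 to 241 CPM (1.79 ± 0.09, adjusted p = 8.56e-07) and IQGAP3 fell from 109 to 51.4 CPM (-1.09 ± 0.13, adjusted p = 8.64e-05). IQGAP2, named here after its value was seen, rose from 46.1 to 88.0 CPM (0.94 ± 0.11, adjusted p = 0.000123). The Cdc42-bound kinase CDC42BPA fell from 94.97 to 37.6 CPM (-1.33 ± 0.11, adjusted p = 1.45e-05). PAK6, a kinase of the PAK group, had 1 count in the wild-type libraries together and 7.47 CPM in the knockout, 81.9-fold higher with an exact 95% interval from 14.6 to 3243. PAK6 reached the filter's level in the knockout alone, so a gene at its wild-type level could pass only by being higher. CDC42EP2 among those higher, and FMNL1 and PAK7 among those lower, named after their values were seen, likewise reached that level in a single genotype.

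Among receptors that act upstream of DOCK1 in engulfment and adhesion, 1 of 6 tested genes was higher and 2 were lower. LRP1, a large receptor for the uptake of dying cells, fell from 420 to 98.6 CPM (-2.09 ± 0.12, adjusted p = 2.10e-06), and MEGF10, another engulfment receptor, fell from 2.45 to 0.122 CPM (-4.37 ± 0.59, adjusted p = 0.000219) on 27 counts in wild type and 8 in the knockout. MEGF10 reached the filter's level in wild type alone, so it could pass only by being lower; it was not tested with thinned libraries or with a mean count of at least 50, where 1 receptor was lower. ITGB1, the common integrin beta chain, rose from 323 to 429 CPM (0.41 ± 0.07, adjusted p = 0.00114), a call that was lost with near-identical libraries summed (adjusted p = 0.105).

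Since DOCK2 and DOCK8 are best known from blood cells and HAP1 derives from a leukaemia, cell type markers are given beside them. Of 16 haematopoietic markers 9 had a row, and their summed level was 42.2 to 42.3 CPM in wild type and 19.7 to 25.6 CPM in the knockout. Of the 4 tested, 3 were lower and 0 higher, with a median log2 fold change of -1.05. CD33 and VAV1 were at 0 in wild type, and CD34 and IKZF1 at 0 in the knockout. VAV1 had only 0, 1 and 2 counts in the deeper knockout libraries, so its 0 in wild type does not set the genotypes apart. Mesenchymal markers, 8 of 10 with a row, summed to 305 to 324 CPM in wild type and 574 to 617 CPM in the knockout, with VIM alone at 132 and 511 CPM. The other mesenchymal markers that passed, named after their values were seen, were lower: FN1 fell from 164 to 68.6 CPM (-1.26 ± 0.08, adjusted p = 3.17e-06) and COL1A1 from 17.1 to 9.74 CPM (-0.83 ± 0.20, adjusted p = 0.00586). The median of the 4 tested mesenchymal markers was -0.48. Epithelial markers, 5 of 8 with a row, summed to 196 to 208 CPM in wild type and 141 to 164 CPM in the knockout. Of the 3 tested, 1 was higher and 1 lower, with log2 fold changes from -3.05 to 1.82 and a median of -0.11. The part of these shifts in the DOCK levels was not tested.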

How the data were processed

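Ribosome footprints of 28 to 32 nt were sequenced from 5 HAP1 libraries, grouped by the genotype in the labels, although the labels' molecule field names polyA RNA. The authors deposited whole-number counts per transcript, not normalized. Bowtie and hg38 are named in the submitters' processing notes; the version, counting tool, annotation, duplicate removal, strand and the handling of reads with several matches are each not given in the sources used here, so close paralogs and overlapping genes are uncertain. The header was shifted by 1 cell, and columns were assigned by name. Coordinates, coding lengths and neighbours are from GENCODE 29 on GRCh38, which placed 13533 rows.

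Counts were fitted in edgeR 4.0.16 (R 4.3.3) with TMM scaling, filterByExpr (minimum count 10), glmQLFit and glmQLFTest on genotype alone, and Benjamini-Hochberg adjustment over the 11205 rows kept of 13638. CPM are TMM-scaled, log2 fold changes compare knockout with wild type, and their SE is approximate. A count of 0 allows up to 3 counts, which is 0.517 and 0.560 CPM in wild type and up to 0.186 CPM in the knockout; floors and intervals cover counting error only. The fit was tested on simulated data.

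The DOCK genes and all lists were chosen with earlier results of these data known; some items chosen with them are not reported here. Named genes were the 8 DOCK genes, ZCCHC4, the smallest p-values of each list (up to 4, or 3 in lists under 10 tested genes), RAC1, CDC42, RHOG and the ELMO genes, the nearest tested coding genes beside DOCK5 and the 3 genes nearest to DOCK3. Alternatives were other scalings, DESeq2 1.42.0, other filters, thinned or summed libraries, each library left out, a replicate block, other lengths and fewer neighbours.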

Additional observations from a re-analysis of the deposited data

How the results depend on the processing

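Every fitted log2 fold change of the 8 DOCK genes stayed below 0, in 118 values over 15 alternatives. Their median was -2.05 with library totals, which move the median of all genes from 0.02 to -0.20, and -1.33 after the spline fit, which was chosen after seeing the data; with each library left out in turn it ran from -1.96 to -1.77. The Rac-type median minus the Cdc42-type median was -1.33, and it was -1.14 with a mean count of at least 50 and -1.13 without DOCK2, since fewer genes enter; with each library left out it ran from -1.40 to -1.22. The number of DOCK genes lower at an adjusted p under 0.05 was 7 with thinned knockout libraries and with a mean count of at least 50 (DOCK2 not tested), with near-identical libraries summed (DOCK1 lost), without wild-type replicate 1 (DOCK8 lost) and without wild-type replicate 2 (DOCK2 lost), and 8 otherwise. Of the genes in the lists around them, 41 were lower, and 27 to 46 with each library left out; the cause was not tested. Per kb of transcript in place of coding sequence, 5 of the 8 genes kept their place in the knockout and 6 in wild type. Over all genes the number passing ran from 4614 to 8176. With the replicate number as a block, 6094 genes passed, 8 DOCK genes were lower and their median was -1.76. The DOCK genes were chosen on this comparison, so nothing is read from how many of them passed in any setting. Same-numbered libraries had a correlation of deviations of -0.05 in both pairs. With only 2 wild-type libraries, which differ by little more than sampling noise, this cannot show whether same-numbered libraries shared a batch. Of 498 values of the other 36 named and tested genes, 1 lost and 15 gained a call, and none changed sign. Wild-type depth limits DOCK2, DOCK4 and DOCK8, whose wild-type counts were 14, 87 and 86.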
